A study of Mus musculus with 6 samples.

Results

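The UDP-glucuronosyltransferases (UGTs) and the cytosolic sulfotransferases (SULTs) were followed in mouse liver as the 42 protein-coding genes of the deposited count table whose symbol reads Ugt with a family number, a letter and a gene number, or Sult with a family number, 21 of each, out of 54532 genes in all. They were compared between livers labelled Fam210aHKO, from mice that lack Fam210a in hepatocytes, and livers labelled Ctrl, with 3 libraries in each group and all mice aged 5 weeks. FAM210A is a mitochondrial protein, and the study addressed what its loss from hepatocytes does to the juvenile liver. The sources used here do not name the driver of the deletion, the deleted part of the gene, the alleles of the Ctrl mice or the sex of the mice. The genotype labels of Fam210aHKO replicates 2 and 3 name other gene numbers than Fam210a, and the titles, which name Fam210aHKO for all 3, set the groups. Nothing states that the replicates were separate animals, so the spread behind the p-values may be partly technical.

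Both families make small lipophilic molecules soluble so that they can leave the liver in bile or urine. UGTs sit in the endoplasmic reticulum membrane and transfer glucuronic acid from UDP-glucuronic acid onto bilirubin, steroids, bile acids and drugs. SULTs are cytosolic and transfer a sulfonate group from the donor PAPS onto phenols, catecholamines, thyroid hormone, oestrogens, hydroxysteroids and bile acids. In adult mouse liver several of these genes are known to be sex-biased.

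Fam210a itself had 31.7, 28.6 and 44.2 CPM (counts per 1e6 after TMM scaling) in Fam210aHKO replicates 1 to 3, against 119, 136 and 162 CPM in Ctrl replicates 1 to 3 (log2 fold change -1.99, SE 0.194, adjusted p = 4.42e-05, edgeR's quasi-likelihood test with Benjamini-Hochberg adjustment). Library totals ran between 12.5 and 19.7 M counts (1 M is 1e6), and 3 counts equalled 0.132 to 0.206 CPM in Fam210aHKO and 0.202 to 0.261 CPM in Ctrl. Of 13706 genes tested, 3774 (27.5%) passed an adjusted p of 0.05, with 1922 (14%) higher and 1852 (13.5%) lower in Fam210aHKO, and the libraries of the groups did not overlap for 5852 (42.7%). The TMM factors averaged 1.17 in Fam210aHKO and 0.855 in Ctrl. With plain library totals instead, the median log2 fold change of all tested genes moved up by 0.45 and 87.1% of the calls were higher, against 50.9% with TMM scaling. Changes are therefore given relative to the typical gene, with TMM scaling.

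Glucuronosyltransferase mRNAs fell or were not called, whereas sulfotransferase mRNAs split into a group that rose and a group that fell. Of the 21 UGT genes 16 passed the filter on low counts, and of these edgeR called 0 higher and 11 lower and left 5 uncalled, against 14% higher and 13.5% lower among all tested genes. DESeq2 also called 0 higher, and at an unadjusted p under 0.05 there was 1, Ugt2b35. The share called lower was 68.8% of the tested UGT genes. Of the 21 SULT genes 12 were tested, of which 5 were higher (41.7%), 6 were lower (50%) and 1 was not called. The libraries of the groups did not overlap for 12 of the 16 UGT genes and 11 of the 12 SULT genes, against 42.7% of all tested genes. The median log2 fold change was -1.30 for the tested UGT genes and 0.10 for the tested SULT genes, against 0.02 for all tested genes. With library totals these medians were -0.85, 0.56 and 0.47. Since 14 members were filtered out, the counts and medians describe the tested members alone.

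**Figure D1:**
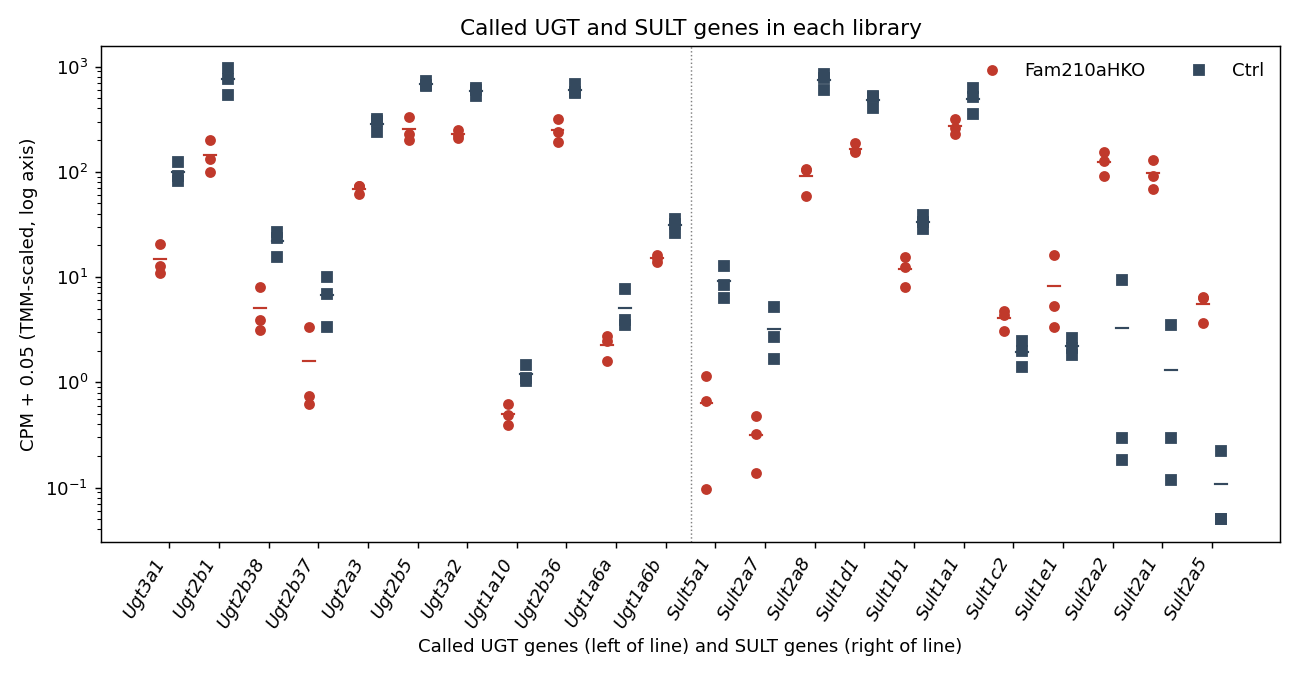
Level of each called UGT gene (left of the dotted line) and SULT gene (right) in every library, as CPM + 0.05 on a log axis; circles are the 3 Fam210aHKO libraries, squares the 3 Ctrl libraries and short lines the group means. The circles lie below the squares for the 11 UGT genes, with overlap at Ugt2b37, and above them for Sult1c2, Sult1e1, Sult2a2, Sult2a1 and Sult2a5.

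The summed level of the UGT genes was 1897, 1939 and 2251 CPM in Fam210aHKO replicates 1 to 3, against 3774, 3935 and 4361 CPM in Ctrl. The SULT genes summed to 746, 793 and 797 CPM in Fam210aHKO and to 1888, 1790 and 1662 CPM in Ctrl. Neither sum overlapped between the groups. In whole liver, fewer cells of a type and less RNA per cell cannot be told apart. The summed level of 10 hepatocyte markers was 87520 to 107200 CPM in Fam210aHKO and 154900 to 235900 CPM in Ctrl. Of the 10, 6 were called lower (60%, against 13.5% of all tested genes). Albumin alone made up most of that sum and was itself not called (log2 fold change -0.88, SE 0.791, edgeR adjusted p = 0.449). Ass1, Cps1 and Tat were not called either. The part of the lower marker levels in the UGT and SULT changes was not tested.

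**Figure D2:**
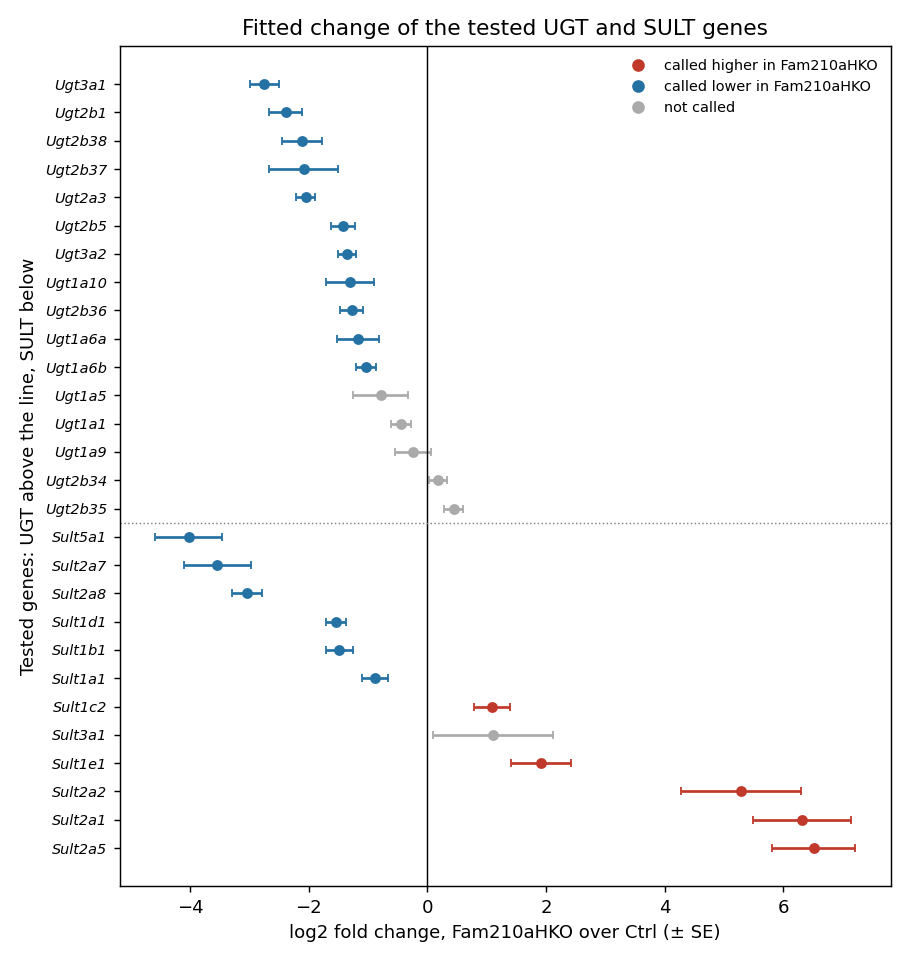
Fitted log2 fold change of Fam210aHKO over Ctrl with its SE for the 28 tested genes, UGT genes above the dotted line and SULT genes below it, ordered by size within each family. The SULT genes span -4.03 (Sult5a1) to 6.52 (Sult2a5), and the UGT genes span -2.75 (Ugt3a1) to 0.44 (Ugt2b35).

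The 3 largest changes of both families were in the Sult2a genes, the hydroxysteroid and bile acid sulfotransferases, which lie side by side on chromosome 7 (13623967 to 14494230, mm10) and moved in opposite directions. In order along the chromosome, Sult2a5, Sult2a2 and Sult2a1 were higher in Fam210aHKO, Sult2a4, Sult2a3 and Sult2a6 did not pass the filter, and Sult2a8 and Sult2a7 were lower. Sult2a2 had 91.3, 126 and 155 CPM in Fam210aHKO replicates 1 to 3 and 9.39, 0.2435 and 0.134 CPM in Ctrl replicates 1 to 3 (log2 fold change 5.29, SE 1.02, edgeR adjusted p = 0.00297). Sult2a1, named for the enzyme that sulfonates dehydroepiandrosterone and bile acids in humans, had 68.1, 90.7 and 130 CPM in Fam210aHKO and 3.48, 0.2435 and 0.0672 CPM in Ctrl (6.32, SE 0.821, adjusted p = 0.000276). For both genes Ctrl replicate 1 was the highest control, yet it lay well below every Fam210aHKO library. Sult2a5 was scarcer, at 3.64, 6.33 and 6.45 CPM in Fam210aHKO, against 0.174, 0 and 0 CPM in Ctrl (6.52, SE 0.700, adjusted p = 2.35e-05). Its 315 counts in Fam210aHKO against 2 in Ctrl give a ratio of 105, with a 95% interval of 28.7 to 868 that covers counting error only.

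Among all 13706 tested genes Sult2a5, Sult2a1 and Sult2a2 ranked 42, 47 and 78 by size of the log2 fold change. That size rested on the control libraries. Without Ctrl replicate 1 the log2 fold changes of Sult2a5, Sult2a1 and Sult2a2 were 9.54, 9.26 and 9.33 (for Sult2a5 with both remaining control libraries at 0, so that this fitted value is no bound), and without Ctrl replicate 3 they were 5.88, 5.68 and 4.67. They were called each time. The Sult2a2 call was lost with the legacy quasi-likelihood test of edgeR (adjusted p = 0.056).

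Sult2a8, which sulfonates bile acids in mouse liver, went the other way and was the most abundant Sult2a message of the controls. It had 107, 59.4 and 104 CPM in Fam210aHKO and 786, 605 and 850 CPM in Ctrl, an 8.26-fold lower fitted level (log2 fold change -3.05, SE 0.250, edgeR adjusted p = 1.66e-05). Its neighbour Sult2a7 was scarce, with 0.4305, 0.275 and 0.0877 CPM in Fam210aHKO and 5.13, 1.62 and 2.62 CPM in Ctrl (-3.54, SE 0.565, adjusted p = 0.00101, and -4.20 without Fam210aHKO replicate 1). Neither gene's groups overlapped. The sum of Sult2a1 to Sult2a6 was 163, 223 and 293 CPM in Fam210aHKO against 13.0, 0.487 and 0.202 CPM in Ctrl, while Sult2a7 and Sult2a8 together had 108, 59.6 and 104 CPM in Fam210aHKO against 791, 606 and 852 CPM in Ctrl.

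The Sult2a genes that were higher are closer in sequence to each other than to those that were lower. The first 60 coding bases (GENCODE M21, GRCm38, the same assembly as mm10) are shown because they separate the 3 genes that were higher from the 2 that were lower; lower case marks bases equal to those of Sult2a1 at the same coding position and capitals mark those that differ. They lie at chr7:13837297-13837356 (Sult2a1, minus strand), chr7:13733559-13733618 (Sult2a2, plus strand), chr7:13624045-13624104 (Sult2a5, plus strand), chr7:14492912-14492971 (Sult2a7, minus strand) and chr7:14427860-14427919 (Sult2a8, minus strand).
Sult2a1: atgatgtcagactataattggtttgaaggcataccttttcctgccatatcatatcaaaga
Sult2a2: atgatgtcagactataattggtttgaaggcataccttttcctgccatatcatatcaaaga
Sult2a5: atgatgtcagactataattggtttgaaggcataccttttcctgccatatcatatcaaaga
Sult2a7: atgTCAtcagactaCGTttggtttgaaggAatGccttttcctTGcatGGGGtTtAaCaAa
Sult2a8: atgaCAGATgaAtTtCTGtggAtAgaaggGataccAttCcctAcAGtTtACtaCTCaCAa
Sult2a1, Sult2a2 and Sult2a5 are identical in this stretch, Sult2a7 differs from them at 18 of the 60 bases and Sult2a8 at 26. Over the aligned coding sequence Sult2a1 had 97.9% identity with Sult2a2 (582 aligned bases, since the annotated Sult2a2 coding sequence is shorter), 94.9% with Sult2a5, 89.7% to 94.0% with the untested Sult2a3, Sult2a4 and Sult2a6, 81.2% with Sult2a7 and 71.9% with Sult2a8. Of all windows of 100 bases in their transcripts, 11.4% of those of Sult2a1, 34.6% of Sult2a2 and 16.6% of Sult2a5 also occur in another gene. For Sult2a2 and Sult2a5 these other genes include Sult2a4, of whose windows 5.76% are shared. Reads may thus be split between Sult2a1, Sult2a2, Sult2a5 and Sult2a4, whose separate values are uncertain. For Sult2a7 and Sult2a8 the share of such windows was 0%. The sources used here do not say how reads that match several genes were counted.

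Outside the Sult2a cluster, sulfotransferases of phenols, catechols and thyroid hormone fell and 2 scarce genes rose. Sult1d1, which sulfonates dopamine and other catechols, had 186, 157 and 154 CPM in Fam210aHKO and 525, 517 and 404 CPM in Ctrl (log2 fold change -1.54, SE 0.167, edgeR adjusted p = 8.75e-05). Sult1b1, a thyroid hormone sulfotransferase, had 15.4, 12.4 and 8.03 CPM in Fam210aHKO and 33.1, 28.25 and 38.65 CPM in Ctrl (-1.49, SE 0.232, adjusted p = 0.000876). Sult1a1, the phenol sulfotransferase on chromosome 7 (126672865 to 126676432), had 262, 317 and 230.3 CPM in Fam210aHKO and 511, 628 and 351 CPM in Ctrl. None of these 3 overlapped between groups. The Sult1a1 change was the smallest called among the members (-0.88, SE 0.218, adjusted p = 0.0118), and library totals ended the call (adjusted p = 0.114).

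Sult1e1, the oestrogen sulfotransferase, which lies beside Sult1d1 on chromosome 5, was higher, with 5.21, 16.2 and 3.33 CPM in Fam210aHKO and 2.61, 1.79 and 2.08 CPM in Ctrl (log2 fold change 1.91, SE 0.510, edgeR adjusted p = 0.0169). Fam210aHKO replicate 2 stood apart from the other two libraries of its group, and without it the log2 fold change was 0.99 (adjusted p = 0.0528). The Sult1e1 call was also lost without Ctrl replicate 2 (0.0603) or Ctrl replicate 3 (0.0648) and with the legacy quasi-likelihood test (0.0565). Sult1c2, on chromosome 17 (53829637 to 53846339), had 4.35, 4.68 and 3.03 CPM in Fam210aHKO and 1.91, 2.435 and 1.34 CPM in Ctrl (1.08, SE 0.3005, adjusted p = 0.0205). Its groups did not overlap, but the call was lost without Fam210aHKO replicate 1 (0.059) or 2 (0.0718) and without Ctrl replicate 1 (0.0622) or 3 (0.0953). In all, the SULT genes called higher numbered 3 rather than 5 without Fam210aHKO replicate 2 or Ctrl replicate 3.

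Sult5a1, on chromosome 8 (123140192 to 123158315), had the largest fall of all members. It had 0.0478, 1.10 and 0.614 CPM in Fam210aHKO and 8.435, 6.25 and 12.6 CPM in Ctrl (log2 fold change -4.03, SE 0.568, edgeR adjusted p = 0.00046, and -4.72 without Fam210aHKO replicate 2). Sult3a1, whose product sulfonates amines, was not called, with 1.63, 1.17 and 0.0439 CPM in Fam210aHKO and 1.04, 0.325 and 0 CPM in Ctrl (1.10, SE 1.01, adjusted p = 0.459). Its libraries overlapped and the SE was nearly as large as the change.

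On chromosome 5 the Ugt2 genes, whose enzymes glucuronidate steroids, bile acids and drugs, form a run (86889767 to 87591594, mm10) that ends in Sult1b1, Sult1d1 and Sult1e1, and 6 of the 8 tested Ugt2 genes fell. Ugt2b1 had 98.9, 132 and 201 CPM in Fam210aHKO and 542, 763 and 958.5 CPM in Ctrl, a 5.24-fold lower fitted level (log2 fold change -2.39, SE 0.284, edgeR adjusted p = 0.000156). Ugt2a3, whose human counterpart glucuronidates bile acids, had 60.95, 72.6 and 73.8 CPM in Fam210aHKO and 237, 319.8 and 305 CPM in Ctrl (-2.06, SE 0.166, adjusted p = 1.53e-05). Every Fam210aHKO library was far below the lowest control for both genes. Ugt2b5 had 199, 227 and 334 CPM in Fam210aHKO and 666, 658.5 and 722 CPM in Ctrl (-1.43, SE 0.204, adjusted p = 0.000494), and Ugt2b36 had 239, 190.1 and 315 CPM in Fam210aHKO and 679, 571 and 558 CPM in Ctrl (-1.28, SE 0.201, adjusted p = 0.000904). Their groups did not overlap, and Fam210aHKO replicate 3 was the highest of its group for both, as it was for Ugt2b1.

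The scarcer Ugt2b38 had 3.11, 3.85 and 8.07 CPM in Fam210aHKO and 15.3, 23.4 and 26.9 CPM in Ctrl (log2 fold change -2.12, SE 0.341, edgeR adjusted p = 0.00107). Ugt2b37 had 0.574, 0.688 and 3.33 CPM in Fam210aHKO and 3.30, 6.82 and 10.02 CPM in Ctrl (-2.09, SE 0.588, adjusted p = 0.0221). It was the 1 called member whose groups overlapped, through Fam210aHKO replicate 3, without which the log2 fold change was -3.42. Its call was lost with DESeq2 (adjusted p = 0.0564), with the legacy quasi-likelihood test (0.0829) and without Fam210aHKO replicate 2 (0.0596) or Ctrl replicate 3 (0.0972). Ugt2b5 and Ugt2b38 have 97.0% identical coding sequence. For each, 434 windows of 100 bases (24.7% and 24.2% of its own) also occur in a neighbouring Ugt2b gene, so their separate values are uncertain.

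Ugt2b34 and Ugt2b35 stand within the same run and were not called. Ugt2b34 had 595, 591.5 and 509.6 CPM in Fam210aHKO and 515.5, 479 and 503 CPM in Ctrl, which overlapped (log2 fold change 0.18, SE 0.1545, edgeR adjusted p = 0.426). Ugt2b35 had 325, 292 and 307 CPM in Fam210aHKO and 250.3, 183 and 248 CPM in Ctrl, so every Fam210aHKO library was above every control (0.44, SE 0.162, adjusted p = 0.0662). With the replicate number as a block Ugt2b35 was called higher (0.45, adjusted p = 0.0158), and with library totals both were (0.88, adjusted p = 0.00303 for Ugt2b35 and 0.63, adjusted p = 0.0112 for Ugt2b34). Together these 2 genes made up 48.5%, 45.6% and 36.3% of the UGT CPM in Fam210aHKO, against 20.3%, 16.8% and 17.2% in Ctrl, a ratio within each library that the scaling does not touch. The coding sequence of Ugt2b35 is 88.5% identical to that of Ugt2b36 and 87.8% identical to that of Ugt2b5, and 0% of its windows of 100 bases occur in another gene.

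**Figure D3:**
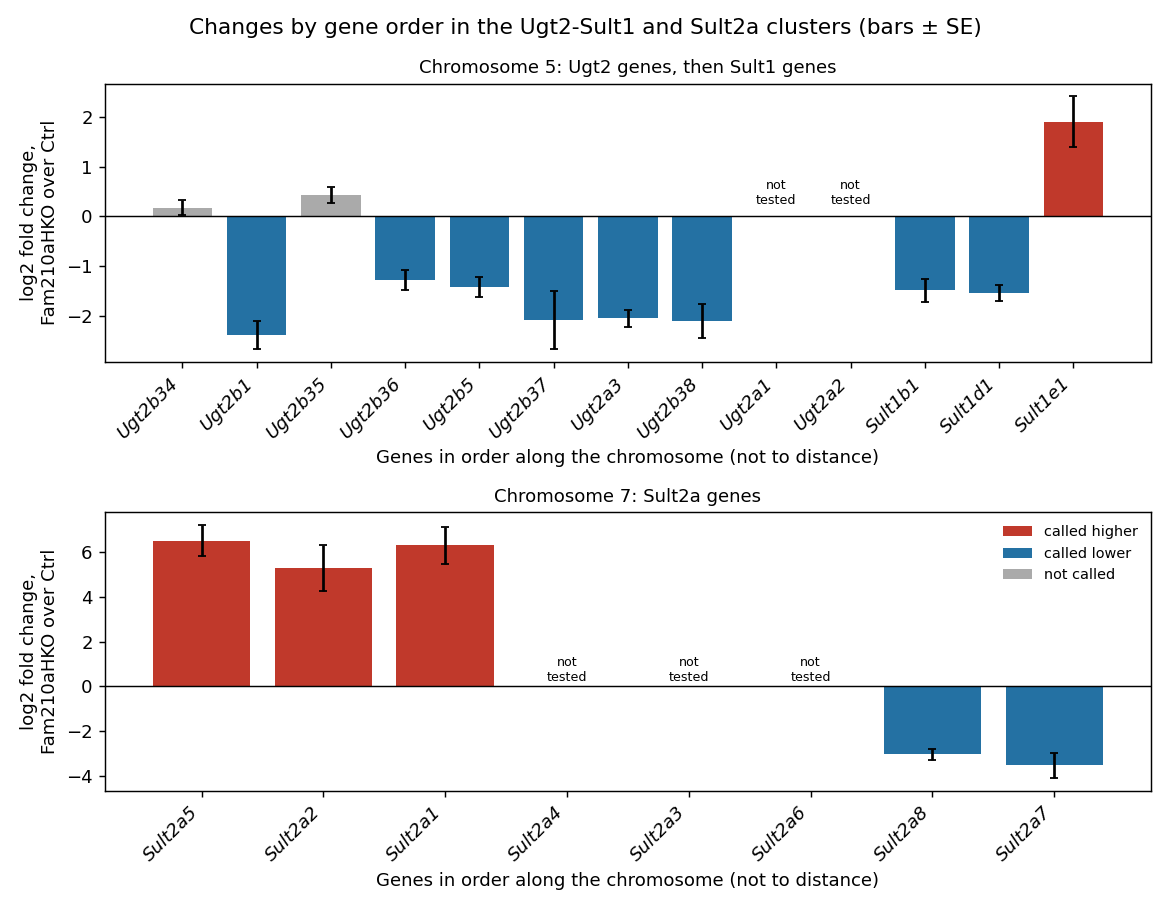
Fitted log2 fold change (Fam210aHKO over Ctrl, bars with SE) of the genes of the chromosome 5 run (top) and of the chromosome 7 Sult2a run (bottom), in gene order and not to distance; red bars were called higher, blue lower and grey not called. Sult2a5, Sult2a2 and Sult2a1 stand at one end of their run with bars of 6.52, 5.29 and 6.32, and Sult2a8 and Sult2a7 stand at the other end with bars at -3.05 and -3.54.

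The Ugt3a genes on chromosome 15 (9276888 to 9370955), whose human counterparts use sugars other than glucuronic acid, both fell. Ugt3a1 had 12.8, 10.8 and 20.5 CPM in Fam210aHKO and 92.0, 81.3 and 123.5 CPM in Ctrl, the largest fall of a UGT gene at 6.71-fold (log2 fold change -2.75, SE 0.251, edgeR adjusted p = 3.02e-05). Ugt3a2 was the more abundant of the pair, with 210.5, 222 and 247.5 CPM in Fam210aHKO and 522.5, 599 and 622 CPM in Ctrl (-1.36, SE 0.156, adjusted p = 0.000127). The groups overlapped for neither. The coding sequences of the pair are 93.2% identical, and 0% of the windows of 100 bases of either occur in another gene.

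Of the 6 tested Ugt1a genes, on chromosome 1 (88055388 to 88220002), 3 were lower and 3 were not called. They join alternative first exons to common later exons, so 50.3% (Ugt1a6a) to 82.7% (Ugt1a1) of the exonic bases of each belong to other genes as well, and the sources used here do not say how reads in them were assigned. The values of single Ugt1a genes are therefore uncertain. Ugt1a1, the bilirubin UGT, had 65.0, 62.95 and 76.1 CPM in Fam210aHKO and 92.95, 109 and 76.2 CPM in Ctrl (log2 fold change -0.45, SE 0.162, edgeR adjusted p = 0.0633). Its groups came close without overlapping, at 76.11 CPM in Fam210aHKO replicate 3 and 76.16 CPM in Ctrl replicate 3. It was called lower with the replicate block (adjusted p = 0.0411) and without Ctrl replicate 3 (0.0305). Ugt1a6b, a phenol UGT, had 16.3, 13.9 and 15.2 CPM in Fam210aHKO and 26.0, 35.8 and 31.5 CPM in Ctrl (-1.04, SE 0.167, adjusted p = 0.00104).

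Ugt1a6a, its paralogue, had 2.44, 2.68 and 1.535 CPM in Fam210aHKO and 7.65, 3.90 and 3.43 CPM in Ctrl (log2 fold change -1.17, SE 0.349, edgeR adjusted p = 0.0286). Library totals ended the call (adjusted p = 0.107), as did leaving out Fam210aHKO replicate 3 (0.0787) or Ctrl replicate 1 (0.139). Ugt1a10 was scarce, at 5 to 21 counts per library, with 0.574, 0.344 and 0.439 CPM in Fam210aHKO and 1.04, 0.974 and 1.41 CPM in Ctrl (-1.31, SE 0.407, adjusted p = 0.0343). Its groups did not overlap, but the call was lost in 7 of 12 alternatives. These were library totals (adjusted p = 0.109), no filter (0.0606), DESeq2 (0.0808), and leaving out Fam210aHKO replicate 2 (0.103) or 3 (0.0787) or Ctrl replicate 1 (0.0661) or 3 (0.136). Ugt1a9, which conjugates phenols, and Ugt1a5 overlapped between groups and were not called. Ugt1a9 had 61.4, 104 and 127 CPM in Fam210aHKO and 114, 69.8 and 163 CPM in Ctrl (-0.25, adjusted p = 0.589), and Ugt1a5 had 5.60, 11.5 and 9.43 CPM in Fam210aHKO and 8.87, 29.55 and 7.33 CPM in Ctrl (-0.79, adjusted p = 0.235).

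Per kilobase of gene length, the order of levels differed between the groups. Sult1a1 was the highest SULT message in both, at a mean of 179 CPM per kb in Fam210aHKO and 329.6 CPM per kb in Ctrl. In Fam210aHKO it was followed by Sult2a2 with 167, Sult2a1 with 94.4, Sult1d1 with 67.4 and Sult2a8 with 27.5 CPM per kb, and each neighbouring pair in this order overlapped over libraries except Sult1d1 and Sult2a8. In Ctrl it was followed by Sult2a8 with 227 and Sult1d1 with 196 CPM per kb, where neighbours also overlapped, with Sult2a2 at 4.395 and Sult2a1 at 1.24 CPM per kb. Among the UGTs, Ugt2b5, Ugt2b34 and Ugt2b36 led in Fam210aHKO with 136, 131 and 120.4 CPM per kb, which overlapped over libraries. In Ctrl, Ugt2b5 led with 367 CPM per kb, ahead of Ugt2b1, which overlapped it over libraries, and Ugt2b36, which did not, both at 293 CPM per kb. The gene length includes exonic bases that Ugt1a genes share, and Ugt1a1 has 385 of its 2224 to itself. The place of the Ugt1a genes in these orders is therefore uncertain. Sult2a8 made up 14.4%, 7.49% and 13.1% of the SULT CPM in Fam210aHKO and 41.6%, 33.8% and 51.1% in Ctrl, and the share of Sult2a1 to Sult2a6 was 21.9%, 28.2% and 36.7% in Fam210aHKO and 0.691%, 0.0272% and 0.0121% in Ctrl. The joint share of Sult1a1 and Sult1d1 overlapped between groups, at 60.03%, 59.75% and 48.25% in Fam210aHKO and 54.9%, 63.9% and 45.4% in Ctrl.

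The 14 members that did not pass the filter had 0 to 21 counts per library. Ugt2a1, an olfactory UGT, Ugt2a2, Sult1c1 and Sult6b2 had 0 counts in all 6 libraries. Of the exonic bases of Ugt2a1 and Ugt2a2, 98.8% and 94.5% belong to other genes as well. How reads in them were assigned is not stated in the sources used here, so the 0 counts of Ugt2a1 and Ugt2a2 are uncertain. Sult2a3 had 2, 8 and 18 counts in Fam210aHKO and 0 in each Ctrl library, at least 6.20-fold higher when Ctrl is set at 3 counts in all, and with no filter it was called higher (adjusted p = 0.016). Sult3a2 (5, 1 and 0 counts) and Sult4a1, a sulfotransferase of the brain (2, 0 and 4 counts), each totalled 6 in Fam210aHKO and 0 in Ctrl. With Ctrl set at 3 counts that is 1.33-fold higher. Neither was called with no filter (edgeR adjusted p = 0.268 for Sult3a2 and 0.247 for Sult4a1). The folds of Sult2a3, Sult3a2 and Sult4a1 leave out counting error, and for Sult3a2 and Sult4a1 no change can be stated. Sult2b1, which sulfonates cholesterol, had 11 counts in Fam210aHKO and 2 in Ctrl (ratio 3.65, 95% interval 0.798 to 33.9), and Sult6b1 had 7 in Fam210aHKO and 3 in Ctrl (ratio 1.55, 95% interval 0.354 to 9.29). Sult2a6 had 2 counts in Fam210aHKO and 0 in Ctrl, and Sult2a4 had 1 in Fam210aHKO and 0 in Ctrl. Ugt1a7c totalled the most, with 9, 7 and 21 counts in Fam210aHKO and 6, 8 and 9 in Ctrl, while Ugt1a8 and Ugt1a2 had at most 6 counts in any library. Apart from Sult2a3, none of these was called with no filter.

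Promoters of 36 of the 42 members were in the RefSeq table (GRCm38.p6, 250 bases before to 50 after the start), 17 of the 22 called members among them. The promoters of Sult2a5 (chr7:13623717-13624016, plus strand) and Sult2a8 (chr7:14446538-14446837, minus strand), which moved in opposite directions, and of Ugt2b5 (chr5:87140291-87140590, minus strand), which fell, and Ugt2b35 of the same run (chr5:87000610-87000909, plus strand), which was not called, are shown for comparison. Capitals mark TATAAA, the hexamer GTTAAT and the nuclear receptor half-site AGGTCA on either strand.
Sult2a5: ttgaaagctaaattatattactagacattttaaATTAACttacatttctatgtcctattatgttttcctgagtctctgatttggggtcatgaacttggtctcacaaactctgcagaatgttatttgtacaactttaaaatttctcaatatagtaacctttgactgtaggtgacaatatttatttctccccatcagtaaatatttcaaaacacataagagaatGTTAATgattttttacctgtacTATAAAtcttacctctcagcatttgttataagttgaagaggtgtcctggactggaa
Sult2a8: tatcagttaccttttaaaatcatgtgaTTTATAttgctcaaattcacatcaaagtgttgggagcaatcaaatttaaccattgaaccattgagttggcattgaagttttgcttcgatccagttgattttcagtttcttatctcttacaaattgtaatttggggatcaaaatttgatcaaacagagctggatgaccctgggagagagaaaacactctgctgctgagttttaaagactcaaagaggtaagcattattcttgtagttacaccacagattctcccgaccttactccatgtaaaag
Ugt2b5: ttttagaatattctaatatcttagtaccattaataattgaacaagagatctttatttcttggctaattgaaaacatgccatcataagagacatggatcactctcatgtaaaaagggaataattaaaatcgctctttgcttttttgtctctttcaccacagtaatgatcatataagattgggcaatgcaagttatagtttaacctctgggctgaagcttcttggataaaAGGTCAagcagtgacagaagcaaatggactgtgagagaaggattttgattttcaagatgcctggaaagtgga
Ugt2b35: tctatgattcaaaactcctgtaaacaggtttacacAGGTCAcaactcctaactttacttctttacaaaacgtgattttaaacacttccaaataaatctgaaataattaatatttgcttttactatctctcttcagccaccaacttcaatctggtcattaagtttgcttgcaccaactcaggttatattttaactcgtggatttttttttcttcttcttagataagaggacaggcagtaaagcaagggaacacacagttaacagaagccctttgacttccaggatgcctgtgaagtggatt
Since 3 members have more than 1 start, matches were counted over the 39 promoters of the 36 members. GTTAAT, searched on both strands, was in 1 of the 3 promoters of higher members, 6 of the 16 of lower members, 2 of the 6 of members not called and 4 of the 14 of members filtered out, against 7.10% of 32851 promoters. In the same order, AGGTCA was in 1 of 3, 6 of 16, 2 of 6 and 1 of 14, against 16.3%, and TATAAA in 1 of 3, 4 of 16, 0 of 6 and 6 of 14, against 13.6%. Of the lower members with AGGTCA, Ugt2b5, Ugt2b37 and Ugt2b38 have promoters that are 87.3% to 95.45% identical. Their matches are therefore not separate cases. The Sult2a5 promoter holds GTTAAT in both orientations and TATAAA. The Sult2a8 promoter shown holds TATAAA, and that of its other start (chr7:14438502-14438801, minus strand), not shown, holds TATAAA as well, beside the half-site AGGTCA and a CCAAT box. Ugt2b5 and Ugt2b35 each hold AGGTCA at different places. CCAAT (37.4% of all promoters) was in 1 of 3, 5 of 16, 0 of 6 and 2 of 14, and GCGTG, the core of the xenobiotic response element (32.4%), in 0 of 3, 2 of 16, 1 of 6 and 3 of 14. The antioxidant response core TGACNNNGC (12.4%) was in 0 member promoters and TGATGNAA (3.97%) in that of Sult1e1 alone. These matches are a description of the letters.

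Of 14 tested genes that supply the sugar and sulfonate donors or hydrolyse the conjugates, 1 was higher and 2 were lower, so 21.4% were called, against 27.5% of all tested genes, with a median log2 fold change of 0.02. Ugdh, which makes UDP-glucuronic acid, was higher, at 154 ± 17.1 CPM in Fam210aHKO and 101 ± 26.5 CPM in Ctrl (SD, n = 3 each; log2 fold change 0.61, edgeR adjusted p = 0.035). The sulfate transporter Slc26a1 was lower, at 83.7 ± 14.9 CPM in Fam210aHKO and 159.5 ± 31.8 CPM in Ctrl (-0.93, adjusted p = 0.00397), as was the Golgi PAPS transporter Slc35b2 at 32.9 ± 4.54 CPM in Fam210aHKO and 46.2 ± 4.89 CPM in Ctrl (-0.49, adjusted p = 0.0381). Ugp2, which makes UDP-glucose, was at 328 ± 49.1 CPM in Fam210aHKO and 327 ± 48.3 CPM in Ctrl (not called), and the PAPS synthases Papss1 and Papss2 were not called (0.40 and -0.20, adjusted p = 0.242 and 0.353). With library totals 7 were higher and 0 lower, and with the replicate block 3 were higher. Of the genes in this list, 0 were higher without Fam210aHKO replicate 1 or 2 or Ctrl replicate 2 or 3, and 2 without Ctrl replicate 1. Those lower numbered 1 without Fam210aHKO replicate 2 or 3 or Ctrl replicate 1 or 3.

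Of 18 tested transporters that carry conjugates, 3 were higher and 8 lower (61.1% called, against 27.5%), with a median of -0.57 (-0.12 with library totals, 5 lower). Those that fell included the efflux transporters Abcc3 (log2 fold change -0.63, edgeR adjusted p = 0.02), Abcc6 (-0.92, adjusted p = 0.00722) and Abcg2 (-0.84, adjusted p = 0.00162). Uptake carriers for bile acids and organic anions were also among them. Slco1a1 had 5.93, 2.61 and 4.91 CPM in Fam210aHKO and 318, 603 and 608 CPM in Ctrl (log2 fold change -6.81, SE 0.377, edgeR adjusted p = 1.62e-06), Slc10a1 averaged 264 ± 51.1 CPM in Fam210aHKO and 895 ± 54.6 CPM in Ctrl (-1.76, adjusted p = 8.23e-05) and Slco2b1 averaged 31.05 ± 6.885 CPM in Fam210aHKO and 100.4 ± 22.5 CPM in Ctrl (-1.69, adjusted p = 0.000228). The efflux pump Abcc4 was higher, at 91.0, 133 and 111 CPM in Fam210aHKO and 2.96, 4.06 and 2.82 CPM in Ctrl (5.09, adjusted p = 5.28e-07), as was Abcb1a, at 19.2 ± 4.765 CPM in Fam210aHKO and 3.20 ± 1.38 CPM in Ctrl (2.59, adjusted p = 0.000127). Those higher numbered 2 without Fam210aHKO replicate 2, Ctrl replicate 1 or Ctrl replicate 3. Abcc2, the main canalicular pump for glucuronides, was not called (-0.15, adjusted p = 0.578).

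**Figure D4:**
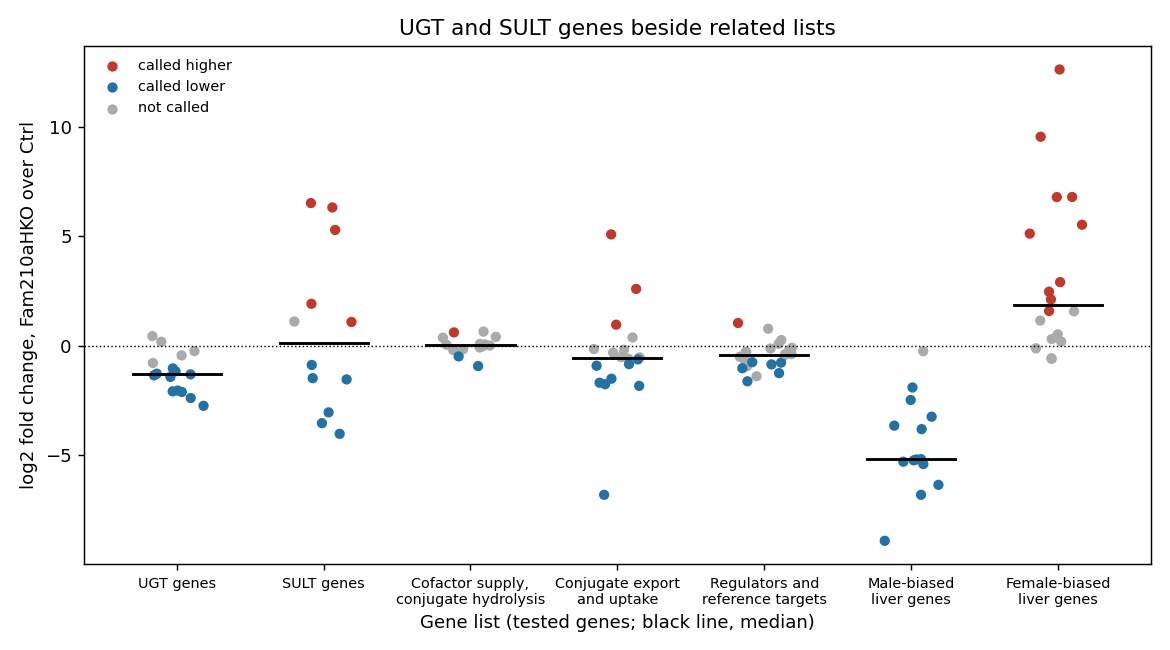
Fitted log2 fold change (Fam210aHKO over Ctrl) of each tested gene in the UGT and SULT families and in 5 related lists, with the median as a black line; red points were called higher, blue lower and grey not called. The UGT points lie below or near 0, the SULT points on both sides, the male-biased genes between -8.92 (Hsd3b5) and -0.26 (Gstp1) and the called female-biased genes above 0.

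Of 22 regulators of conjugation genes and their reference targets, 1 was higher (4.5%, against 14% of all tested genes) and 6 were lower (27.3%, against 13.5%). In both directions 31.8% were called, near the 27.5% of all tested genes. The median was -0.41, turning to 0.04 with library totals, where 4 were higher and 2 lower. With the replicate block 10 were lower. Nr1i3, the receptor CAR that induces UGT and SULT genes on drug exposure, averaged 11.9 ± 2.70 CPM in Fam210aHKO and 36.8 ± 8.05 CPM in Ctrl (log2 fold change -1.63, edgeR adjusted p = 0.000316). Cebpa was at 136 ± 14.2 CPM in Fam210aHKO and 325 ± 78.7 CPM in Ctrl (-1.255, adjusted p = 0.00076) and Rxra, the partner of CAR, at 272 ± 30.1 CPM in Fam210aHKO and 458 ± 93.1 CPM in Ctrl (-0.75, adjusted p = 0.011). Nqo1, a target of NRF2 and of the aryl hydrocarbon receptor, was higher, at 16.05 ± 1.59 CPM in Fam210aHKO and 7.83 ± 3.13 CPM in Ctrl (1.04, adjusted p = 0.0111). The receptors Nr1i2 (PXR) and Ahr and the factor Nfe2l2 (NRF2) were not called. Nor were the reference targets Cyp2b10 (-0.94, edgeR adjusted p = 0.0985), Cyp3a11, Cyp1a1 and Cyp1a2. Without Ctrl replicate 3 the list had 0 higher and 4 lower.

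Several members are known as sex-biased, so lists of male- and female-biased liver genes were set beside them. The members themselves were not sorted by sex bias. Of 14 male-biased genes 13 were lower (92.9%, against 13.5% of all tested genes) and 0 higher, also at an unadjusted p under 0.05 (median -5.19), Cyp4a12b with 1.51 ± 0.324 CPM in Fam210aHKO and 64.6 ± 18.9 CPM in Ctrl (log2 fold change -5.41, edgeR adjusted p = 1.06e-06) and Cyp4a12a with 1.68 ± 0.657 CPM in Fam210aHKO and 139.9 ± 42.1 CPM in Ctrl (-6.36, adjusted p = 1.405e-06) among them. Slco1a1, above, is in this list too. Of 18 female-biased genes 10 were higher (55.6%, against 14% of all tested genes) and 0 lower (1, Prlr, lower at an unadjusted p under 0.05; median 1.85, also with Cyp3a41a, which had 0 counts in Ctrl, set at its bound of at least 519-fold). Cyp2a4 had 722.5, 1237 and 879 CPM in Fam210aHKO and 7.39, 17.1 and 1.28 CPM in Ctrl (6.79, adjusted p = 8.9e-05), and Cyp3a44 had 25.4, 160.4 and 95.9 CPM in Fam210aHKO and 0.9565, 1.055 and 0.538 CPM in Ctrl (6.80, adjusted p = 3.87e-05). Cyp3a41b had 8.75, 59.65 and 7.63 CPM in Fam210aHKO and 0.0870, 0 and 0 CPM in Ctrl. With DESeq2 6 female-biased genes were higher and 1 lower, and with the legacy quasi-likelihood test 4 were higher. The count lower was also 1 with the replicate block and without Fam210aHKO replicate 3 or Ctrl replicate 3. The count higher was 7 without Fam210aHKO replicate 3. The Y-linked Ddx3y was at 91.4 to 117 CPM in Fam210aHKO and 99.9 to 138 CPM in Ctrl, Xist was at most 0.206 CPM in Fam210aHKO and at most 0.487 CPM in Ctrl, and 0 of 4 tested sex chromosome genes were called. Every library thus had the Y-linked message with no more than a trace of Xist, the pattern of male liver.

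Markers of other liver cells were measured beside these changes, in lists of few genes. Of all tested genes 14% were higher and 13.5% lower. Against that, 60% of the tested cholangiocyte, 33.3% of the macrophage and 25% of the stellate cell and fibroblast markers were higher. Of the endothelial and erythroid markers 28.6% and 20% were lower. Summed cholangiocyte markers were at 137 to 277 CPM in Fam210aHKO and 39.7 to 59.6 CPM in Ctrl (3 of 5 tested higher), largely through Spp1. Stellate cell and fibroblast markers were at 429.8 to 638 CPM in Fam210aHKO and 329.7 to 386 CPM in Ctrl (2 of 8 higher), and macrophage markers at 263 to 485 CPM in Fam210aHKO and 313 to 432 CPM in Ctrl (3 of 9 higher). Endothelial markers were at 192 to 321 CPM in Fam210aHKO and 292 to 395 CPM in Ctrl (2 of 7 lower), and erythroid markers at 24.01 to 238 CPM in Fam210aHKO and 82.9 to 86.0 CPM in Ctrl (1 of 5 lower). The erythroid gene called lower was Alas2, whereas the globins were not called, with log2 fold changes of 1.22 (Hba-a2) to 1.75 (Hba-a1). Fam210aHKO replicate 3 stood apart for them, as for Hba-a1 with 12.8, 8.39 and 111.8 CPM in Fam210aHKO replicates 1 to 3. Lymphocyte markers were at 13.5 to 20.3 CPM in Fam210aHKO and 15.6 to 17.9 CPM in Ctrl, and neutrophil markers at 4.11 to 6.95 CPM in Fam210aHKO and 4.52 to 4.77 CPM in Ctrl. By edgeR 0 of the 7 tested genes of these last lists were called, also at an unadjusted p under 0.05. The part of these in the UGT and SULT changes was not tested.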

How the data were processed

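Per the labels, liver RNA was extracted with TRIzol and polyadenylated RNA was selected. The submitters' processing notes name STAR, featureCounts, FastQC, Trimmomatic and DESeq2 and the build mm10, with no versions. The authors deposited raw counts per Ensembl gene, beside a gene length in bases. The sources used here do not state the strand setting or what was done with reads that match several genes. The 6 columns of the authors' FPKM table were not used.

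Genes were kept by filterByExpr (minimum count 10), scaled by TMM and tested, Fam210aHKO against Ctrl, with edgeR 4.0.16 (R 4.3.3), quasi-likelihood F test, two-sided, with Benjamini-Hochberg adjustment over all 13706 tested genes. An adjusted p under 0.05 made a call. SE is the size of the log2 fold change over the root of the F statistic. CPM divide by the summed counts of tested genes after TMM scaling, and CPM per kb divides by the gene length. Intervals of count ratios are exact 95% binomial intervals for counting error only.

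Named were all called members, the members not called, those filtered out, and in each list up to 3 called genes of smallest p in the more frequent direction and 2 in the other. The efflux transporters Abcc3, Abcc6 and Abcg2 were named as well. Members and lists were chosen with earlier results of these data known.

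Same-numbered libraries deviated together from their group means (correlations 0.245, 0.182 and 0.155, against -0.141 to -0.0262 for other pairs). The titles give the numbers and not what they share, so the main fit used the group alone and no pairing. The fit with the replicate number as a block is an alternative, in which 2433 of all tested genes were called higher and 2463 lower. Others were median-of-ratios scaling, library totals, no filter, CPM above 1 in 3 libraries, DESeq2 1.42.0, leaving out each library and, added after the data were seen, the legacy quasi-likelihood test. The scripts were tested on simulated data. Sequences are from GENCODE M21 and RefSeq; all 42 members have the same coordinates in GENCODE M21.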

Additional observations from a re-analysis of the deposited data

How the results depend on the processing

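Of the 22 called members, 15 were called under each of the 13 alternatives tried and 22 kept their sign in each, with Ugt1a10 left without a value under the filter of CPM above 1. Library totals in place of TMM factors gave 5846 genes higher and 868 lower among all tested, and 2 UGT genes and 26 genes of the related lists higher. With the replicate block 1 UGT gene was higher, and of the members this fit changed the calls of Ugt1a1 and Ugt2b35 alone. The legacy quasi-likelihood test gave 3 SULT genes and 9 genes of the related lists higher, against 5 and 15. The cause of these shifts was not tested, apart from the scaling, which moves every gene alike.

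Leaving out each library in turn, all tested genes higher numbered 1338 to 1896 and lower 1335 to 1834, UGT genes higher 0 and lower 9 to 11, SULT genes higher 3 to 5 and lower 6, and genes of the related lists higher 10 to 16 and lower 25 to 29. Depth limits the scarce members: those under about 1 CPM rest on few counts per library. Of the 14 filtered members Sult2a3 alone was called with no filter, and the others were not detectable as changed at this depth. For Ugt2a1 and Ugt2a2 the exonic bases shared with other genes are a further limit.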
